A study of Mus musculus with 2 samples.

Results

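The nuclear-encoded respiratory chain genes were taken here as the gene rows whose symbol starts with Nduf, Uqcr, Cox4, Cox5, Cox6, Cox7, Cox8 or Atp5, with at least 20 unique molecular identifiers (UMIs, each standing for 1 captured RNA molecule) over both libraries, leaving out Ndufa4l2 and the Ndufaf assembly factors. Of 33456 gene rows, 78 met the rule: 37 for complex I, 8 for complex III, 16 for complex IV and 17 for complex V. The last gene inside the limit was Cox6a2 with 65 UMIs, and 2 further matching symbols lay outside it, Cox7b2 with 8 UMIs and Cox8c with 1. The 78 genes held 665325 UMIs in library 1 and 945863 in library 2, which was 2.956% and 3.083% of all UMIs. All 78 are protein-coding genes, and they lie on 19 chromosomes of GRCm38. Genes were assigned to complexes by symbol. Ndufa4 is therefore counted with complex I although its protein is known as a complex IV subunit, and Atp5s, Atp5sl and Cox7a2l match by name without being classical subunits.

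The tissue was the ciliary epithelium of the eye, taken at postnatal day 35 from C57BL/6 mice that the series calls wild type, with no treatment in the labels. Both libraries belong to this 1 group. Library 1 was a pool of 3 sets of eyes, and the labels give both 3 and 4 sets for library 2. Tissue was digested with collagenases and single cells were captured in droplets.

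The respiratory chain sits in the inner mitochondrial membrane. Complex I takes electrons from NADH, complex III passes them on to cytochrome c and complex IV hands them to oxygen, while complex V, the ATP synthase, uses the proton gradient that these steps build. Most subunits are encoded in the nucleus and a smaller set in mitochondrial DNA. Several complex IV subunits, and subunit c of the ATP synthase, come in paralogous forms that take the same place and are known for expression in particular tissues. In the eye, ciliary epithelial layers secrete aqueous humour by active ion transport, and photoreceptors pack mitochondria into their inner segments; both are known as cells of high energy demand.

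The files gave 4764 barcodes with 22510387 UMIs for library 1, and 6220 with 30683405 for library 2. After filtering, 3865 and 5466 cells remained, with a median of 4128 and 2968 UMIs per cell. Cells were clustered on genes that excluded all 78 respiratory chain genes and were named from marker lists. This gave 22 classes, of which 19 had at least 20 cells in each library and were fitted. Although the labels name the ciliary epithelium, its pigmented and non-pigmented layers made up 279 of 3865 cells (7.22%) and 370 of 5466 cells (6.77%). Rods made up 9.91% and 32.2%. The pigmented class may include iris epithelium, because the marker list for the pigmented layer does not separate ciliary from iris cells. The 2 libraries differed in rod RNA outside rods. The summed level of 10 rod markers over the 18 other fitted classes had a median of 489 UMIs per 1000000 (CPM) in library 1 and 5074 in library 2. Scrublet marked 3 and 0 cells as doublets, so it did not work here and doublets were not removed. The 2 libraries shared 11 barcode sequences.

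Levels of the whole set were compared as UMIs of the 78 genes per 10000 UMIs of each class, summed per library, with the values of library 1 given first. The pigmented epithelium had 475 and 433, the highest level of the 19 fitted classes in each library. The retinal pigment epithelium followed with 379 and 396, and the non-pigmented layer had 392 and 345. Amacrine cells had 391 and 378, bipolar cells 410 and 359, and melanocytes 415 and 331, so these retinal and pigmented classes overlapped one another.

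Photoreceptors lay lower than the inner retinal neurons on this scale, with 341 and 324 in cones and 325 and 292 in rods, whose median depth was 1016 and 1238 UMIs per cell. Pericytes and smooth muscle had 310 and 263, contractile stroma 277 and 214, endothelium 246 and 243, Schwann cells 252 and 215, and Muller glia 233 and 234. Fibroblasts had 233 and 197 and macrophages 223 and 195. The lowest fitted classes were B cells with 171 and 174 and neutrophils with 175 and 138. In this order, neighbouring classes were separate in both libraries at only 3 steps: pigmented epithelium above retinal pigment epithelium, non-pigmented epithelium above cones, and macrophages above B cells. The last of these steps depended on ribosomal protein UMIs in the total, as given below. Library 1 was the higher library in 16 of the 19 classes, so the spread between libraries was partly shared by classes. These are shares of captured RNA, in which more mitochondria and fewer other transcripts cannot be told apart.

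**Figure D1:**
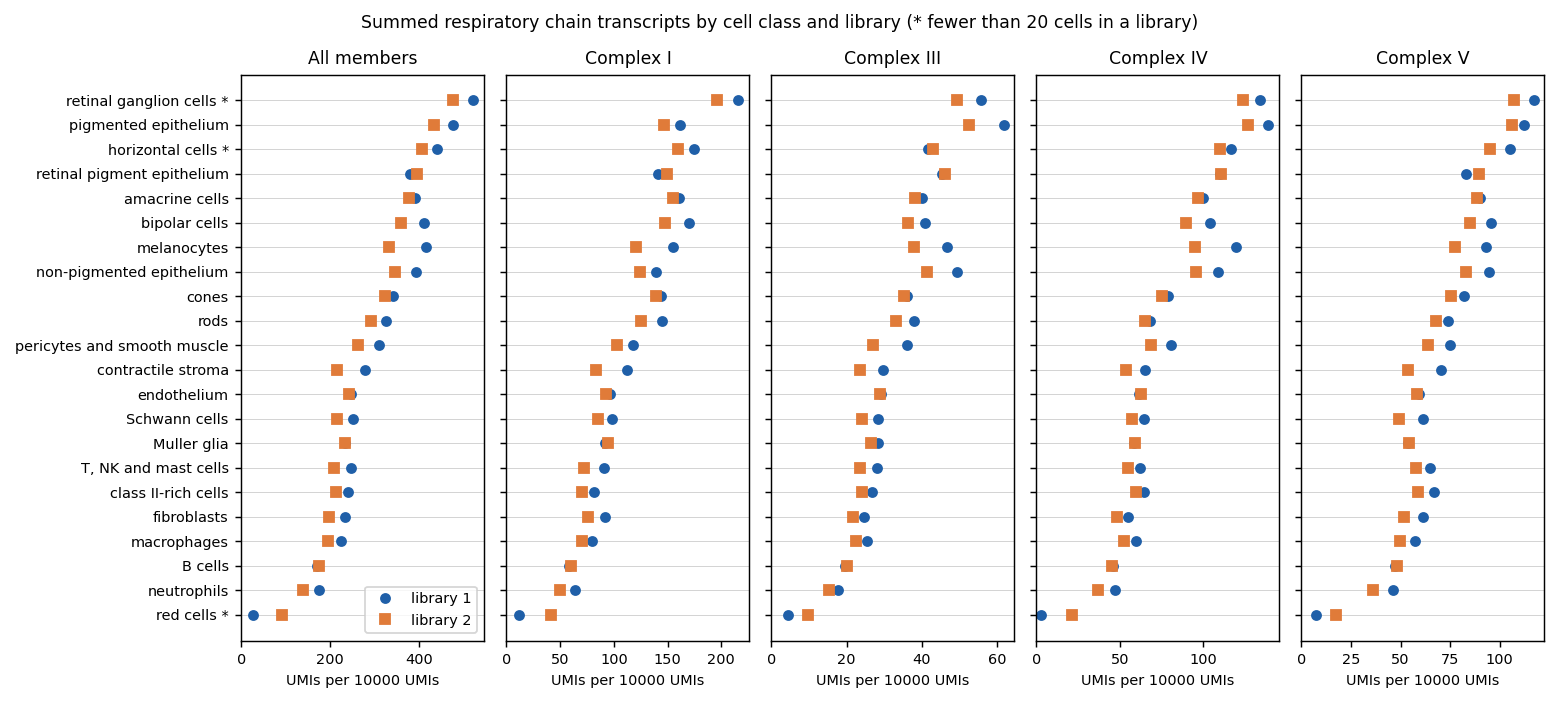
Summed level of all 78 genes (left panel) and of each complex by cell class, as UMIs per 10000 UMIs of the class on linear axes, with 1 point for each library. In the left panel the pigmented epithelium sits highest among fitted classes at 475 and 433 while neutrophils sit at 175 and 138.

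A pair of small retinal classes could not be fitted because library 1 held under 20 of their cells. Retinal ganglion cells, 16 and 55 cells, had 522 and 476 UMIs of the set per 10000, above every other class. Horizontal cells, 12 and 52 cells, had 439 and 407. Ganglion cells are the output neurons of the retina, and their median depth here was 18664 and 19720 UMIs per cell. Red cells, with 1 and 8 barcodes, had 26 and 90.3.

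Every complex was higher in the pigmented than in the non-pigmented layer in both libraries. Complex I genes had 162 and 147 UMIs per 10000 in the pigmented layer, and 139 and 124 in the non-pigmented layer. Complex III genes had 61.7 and 52.6 in the pigmented layer, and 49.2 and 41.3 in the non-pigmented layer. Complex IV genes had 139 and 127 in the former, and 109 and 96.0 in the latter. Complex V genes, which build the ATP synthase, had 112 and 106 against 94.8 and 83.0. Fibroblasts had 91.9 and 75.9 for complex I, 24.7 and 21.6 for complex III, 54.8 and 48.1 for complex IV and 61.4 and 51.5 for complex V.

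The balance between complexes differed among classes. The ratio of complex IV to complex I UMIs was 0.856 and 0.864 in the pigmented epithelium, the highest of the fitted classes with all members counted. It was 0.783 and 0.772 in the non-pigmented layer and 0.780 and 0.747 in the retinal pigment epithelium. Cox8b, a complex IV gene, had 1301 and 1419 CPM in the pigmented epithelium and 2681 and 2275 in the retinal pigment epithelium. Part of these high ratios is therefore from Cox8b. Class II-rich cells, with 11.6 and 45.8 CPM of Cox8b, had the next highest ratio, 0.796 and 0.841. The first place of the pigmented epithelium above them rests on counting Cox8b. The order of the other classes without this 1 gene was not tested. With Ndufa4 counted by its symbol in complex I, rods at 0.468 and 0.520 and cones at 0.548 and 0.541 had the lowest ratios of the fitted classes. Rods had 145 and 125 complex I UMIs per 10000, near the non-pigmented layer's, but 67.9 and 65.3 complex IV UMIs. Bipolar cells, with 170 and 148 for complex I and 104 and 89.9 for complex IV, had higher values for both complexes. Fibroblasts had a ratio of 0.596 and 0.633. This order of the low ratios rests on the place of Ndufa4, which held 19.9% and 16.8% of complex I UMIs in rods and 6.63% and 7.92% in fibroblasts. With Ndufa4 counted in complex IV, a setting chosen after seeing the data, the ratio was 0.832 and 0.828 in rods, 0.851 and 0.865 in cones and 0.710 and 0.773 in fibroblasts. Photoreceptors then lay above fibroblasts in both libraries, while the pigmented epithelium at 1.15 and 1.13 was still the highest fitted class.

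Across the 19 classes, as means of the 2 libraries, the complexes varied together. Pearson's r was 0.97 between complexes III and IV and between IV and V, 0.93 between I and V, 0.89 between I and III, and 0.87 between I and IV. These points share libraries and totals, and the values are descriptions. The level of the set had r of 0.20 with the median UMIs per cell and -0.59 with the share of ribosomal protein UMIs, which ran from 3.09% and 4.16% in the retinal pigment epithelium to 32.1% and 30.4% in B cells. Fibroblasts had 13.4% and 12.7%, and the pigmented layer 6.78% and 7.02%. Ribosomal protein transcripts are part of every total. With these and mitochondrial UMIs left out of the total, B cells had 277 and 280 UMIs of the set per 10000. Macrophages then had 282 and 250 and fibroblasts 282 and 243, so B cells were no longer separate below them. The pigmented epithelium, at 603 and 554, was still the highest fitted class, and neutrophils, at 196 and 155, the lowest.

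Most of the 78 genes varied modestly over cell types, and a minority varied widely. The standard deviation of a gene's log2 level over the 19 classes had a median of 0.55, and 46 of the 78 genes were under 0.6. The gap between the 2 libraries had a median of 0.29 on the same scale. The genes with the least spread were Atp5e and Ndufa6 (0.27 each), Ndufa7 (0.30), Atp5l (0.31) and Ndufa2 (0.32), which are small subunits. At the other end, 7 genes had a standard deviation of at least 1: Cox8b (2.52), Cox4i2 (2.15), Cox6b2 (1.94), Cox7a1 (1.70), Ndufs1 (1.34), Atp5s (1.23) and Ndufa10 (1.19). The first 4 of these are the tissue-specific paralogs of complex IV. Sums at 0, mostly in small classes, widen this measure. Of the 38 fitted sums, Cox8b was at 0 in 3, Cox4i2 in 4, Cox6b2 in 5 and Cox7a1 in 7. Ndufs1 was at 0 in 2, Ndufa10 in 1 and Atp5s, with a median of 8.39 CPM, in 7.

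Among the 19 fitted classes, the class with the highest level was the same in both libraries for 49 genes. It was the pigmented epithelium for 18 of them, amacrine cells for 13, the retinal pigment epithelium for 6, melanocytes for 5 and cones for 2. The mean correlation of a gene with the other members over the 38 class sums was lowest for Atp5sl (0.03), Atp5e (0.05), Cox6a2 (0.08) and Cox7a2l (0.16). For complex I genes the median of this mean was 0.65 with genes of their own complex and 0.54 with those of other complexes. It was 0.61 and 0.57 for complex III, 0.47 and 0.53 for complex IV and 0.55 and 0.61 for complex V. The genes of complexes IV and V were thus no closer to one another than to the rest. Among genes outside the set, the highest correlations with its summed level were those of Cyc1 (0.88), 2010107E04Rik (0.88), Usmg5 (0.87), Ghitm (0.85) and Ociad1 (0.84). With the edgeR test over all class coefficients, 76 of the 77 genes tested differed among classes, against 85.7% of the 7068 genes tested. Atp5s, an adjusted p of 0.0565, was the exception, and Cox6a2 had too few UMIs to be tested.

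**Figure D2:**
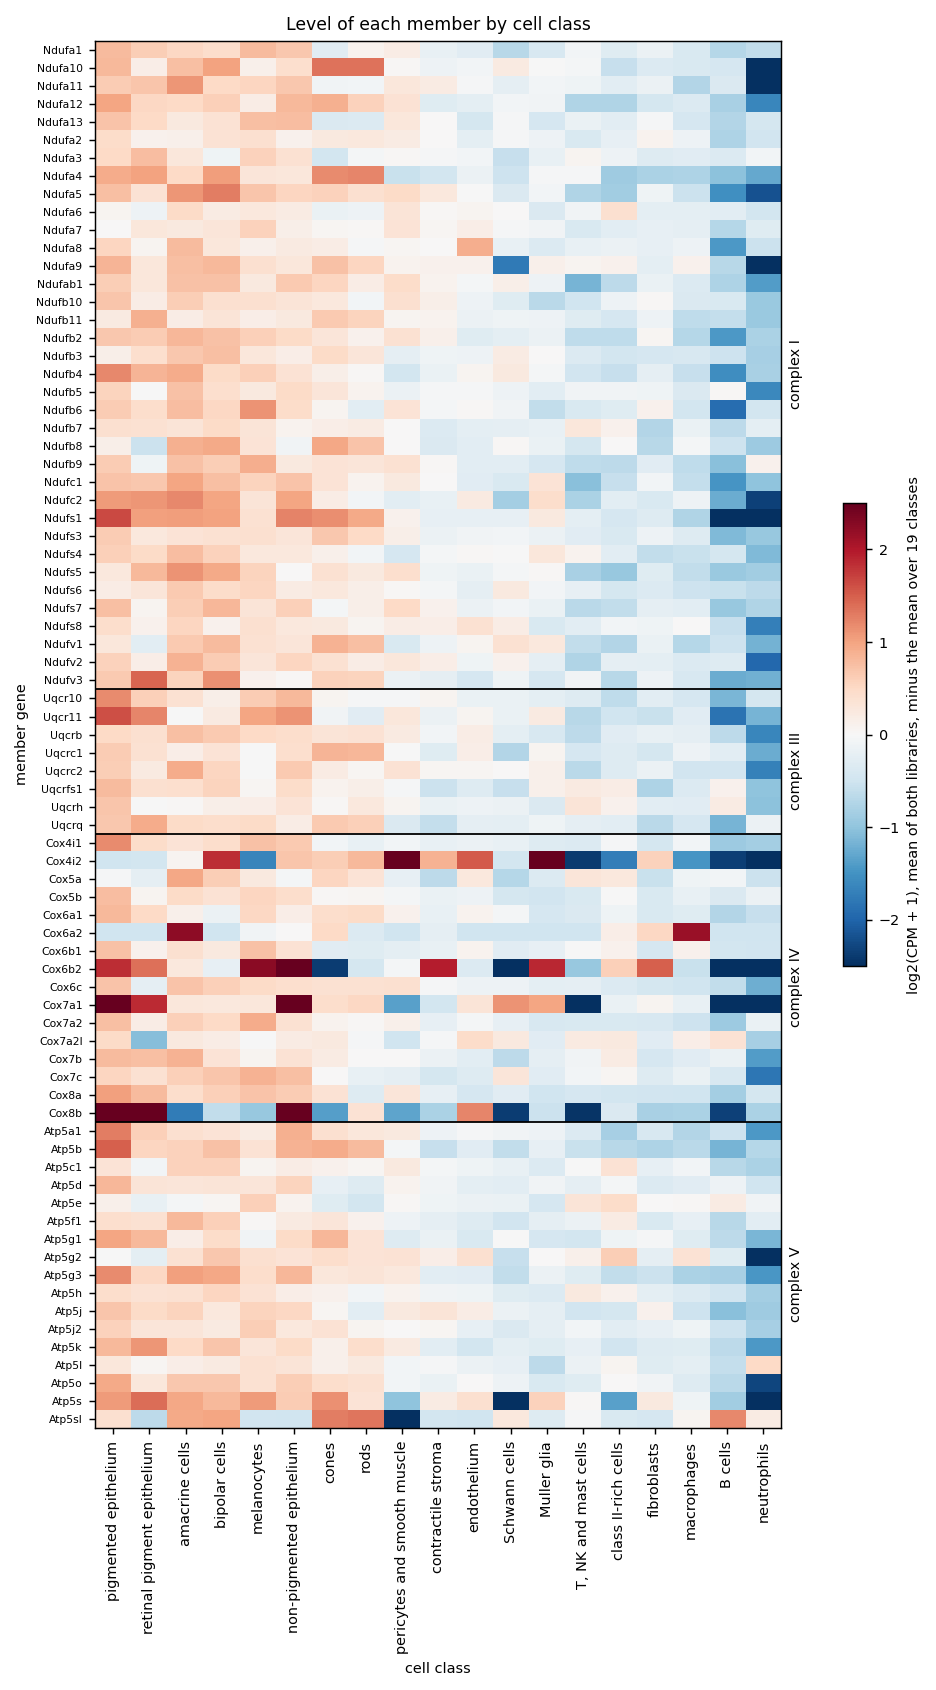
Level of 77 of the 78 genes in each cell class, as log2(CPM + 1) averaged over both libraries minus the gene's mean over the 19 classes, with genes grouped by complex. Many rows have high values in the pigmented epithelium, and Cox8b, Cox4i2, Cox6b2 and Cox7a1 stand out with the widest spread over classes.

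Complex IV contained the genes with the narrowest expression. Cox8b encodes the form of subunit 8 known from heart, skeletal muscle and brown fat, and Cox8a the form found in most tissues. Cox8b lies on chromosome 7 at 140898945 to 140900446 on the minus strand of GRCm38, and Cox8a on chromosome 19 at 7215153 to 7217616, also on the minus strand. Cox8b reached 2681 and 2275 CPM in the retinal pigment epithelium, 1301 and 1419 in the pigmented epithelium and 356 and 548 in the non-pigmented layer. Endothelium had 41.6 and 121, and each other fitted class at most 45.8. The 3 epithelia were therefore separate from every other fitted class in both libraries.

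Cox8b supplied 50.4% (95% Clopper-Pearson interval 49.2 to 51.5) and 47.3% (46.0 to 48.5) of Cox8 UMIs in the retinal pigment epithelium. In the pigmented epithelium it supplied 28.4% (27.0 to 29.9) and 33.4% (32.2 to 34.7), and in the non-pigmented layer 12.7% (11.4 to 14.0) and 20.0% (18.5 to 21.5). These intervals cover counting error only, and shares of UMIs are not corrected for transcript length or capture. Markers of skeletal muscle, another known site of Cox8b, were near 0 in these classes. The 9 listed markers summed to 2.82 and 2.23 CPM in the retinal pigment epithelium, 4.71 and 1.46 in the pigmented epithelium and 4.11 and 4.96 in the non-pigmented layer. Markers of the retinal pigment epithelium summed to 51621 and 62629 CPM in that class, 1082 and 2021 in the pigmented layer and 374 and 1643 in the non-pigmented layer. The 10 rod markers summed to 508 and 3627 CPM in the non-pigmented layer and 360 and 3615 in the pigmented layer, while Cox8b in rods was 34.3 and 44.4. The part of RNA from other cells in the lower Cox8b levels was not tested. Cox8a was detected in every fitted class, between 708 and 3277 CPM with a median of 1215 and the highest value in the pigmented epithelium, 3277 and 2824.

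The promoters of the 2 genes are shown because the 1 gene was restricted to few classes and the other was found in all. The sequences are RefSeq windows on GRCm38.p6, 250 bases before to 50 after the annotated start, read 5′ to 3′ along the gene. Capitals mark ACTTCCGG, the reverse complement of the ETS-type motif CCGGAAGT, in Cox8a, and the TATA box TATAAA in Cox8b. Cox8a is at chr19:7217567-7217866 (minus strand) and Cox8b at chr7:140900397-140900696 (minus strand).
Cox8a: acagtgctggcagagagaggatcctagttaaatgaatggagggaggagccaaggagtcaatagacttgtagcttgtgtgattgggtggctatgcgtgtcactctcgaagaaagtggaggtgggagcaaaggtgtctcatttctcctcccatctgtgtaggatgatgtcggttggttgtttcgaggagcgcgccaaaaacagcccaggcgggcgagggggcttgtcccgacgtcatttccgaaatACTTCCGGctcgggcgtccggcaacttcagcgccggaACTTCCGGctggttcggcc
Cox8b: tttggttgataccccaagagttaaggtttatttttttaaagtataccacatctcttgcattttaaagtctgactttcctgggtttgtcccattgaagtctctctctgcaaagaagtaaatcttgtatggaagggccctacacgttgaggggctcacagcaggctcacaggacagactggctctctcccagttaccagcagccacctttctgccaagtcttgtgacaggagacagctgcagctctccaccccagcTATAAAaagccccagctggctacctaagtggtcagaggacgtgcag

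The Cox8a window had a GC content of 56.0% and the Cox8b window 48.3%. The table held 63 of the 78 promoters, and motifs were searched on both strands. CCGGAAGT was found in 5 of these 63 (7.94%), those of Atp5h, Cox8a, Ndufs3, Uqcr11 and Uqcrh, and in 4% of all 27025 promoters. The palindromic NRF1 motif was found in 5 of 63 (7.94%), those of Atp5g2, Atp5k, Cox6a1, Ndufa11 and Uqcrc1, and in 0.977% of all promoters. TATAAA was found in 6 of 63 (9.52%), including Cox8b, and in 14.2% of all promoters. A match is a description of these letters and not a shown binding site.

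Cox4i2 marked a different group of cells. It encodes the form of subunit 4 known from lung and from oxygen-sensing cells, and lies on chromosome 2 at 152754173 to 152765037 on the plus strand. Muller glia, the radial glia of the retina, had 638 and 372 CPM, and pericytes with smooth muscle had 316 and 314. Bipolar cells had 89.3 and 63.0, endothelium 63.7 and 57.6, and the pigmented epithelium 12.9 and 15.3. Both leading classes were therefore above all others in each library. Cox4i2 supplied 52.8% (48.1 to 57.4) and 36.9% (34.0 to 40.0) of Cox4 UMIs in Muller glia, and 29.5% (24.7 to 34.7) and 31.6% (22.6 to 41.8) in pericytes. The 12 pericyte and smooth muscle markers summed to 293 and 360 CPM in Muller glia and to 38144 and 25643 in the pericyte class. Over 17 fitted classes other than pericytes, this sum had a median of 258 and 288. Kcnj8, Abcc9, Higd1b and Gja4 of the list were at 0 in Muller glia of both libraries, so the sum there came from its other genes. Kdr and Flt1, listed as endothelial markers, were among the 10 top genes of the Muller glia cluster. The part of RNA from other cells in Cox4i2 of Muller glia was not tested. Cox4i1, the general form, lay between 308 and 1750 CPM with a median of 707 and was highest in the pigmented epithelium, 1665 and 1750.

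Cox7a1, the heart and muscle form of subunit 7a, was low throughout. It had 58.9 and 59.7 CPM in the pigmented epithelium, 49.4 and 47.6 in the non-pigmented layer and 21.1 and 43.1 in the retinal pigment epithelium, and 7 of the 38 fitted sums were at 0. The few retinal ganglion cells had 119 and 68.4. Cox7a2, its general paralog, lay between 311 and 1377 CPM with a median of 607 and was highest among fitted classes in melanocytes at 1377 and 998.

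Cox6b2, a form first known from testis, was highest in the non-pigmented layer at 158 and 126 CPM, which was 18.4% of Cox6b UMIs in each library. This share was not particular to that layer: it was 13.9% and 18.2% in contractile stroma, 16.8% and 14.5% in Muller glia and 11.7% and 16.5% in fibroblasts. Melanocytes had 107 and 95.9, Muller glia 84.9 and 71.1, contractile stroma 82.2 and 80.7 and the pigmented epithelium 63.6 and 90.3. Cox6b1 lay between 286 and 970 CPM with a median of 503. Cox6a2, the muscle form of subunit 6a, never passed 13.3 CPM and was at 0 in 26 of 38 sums, while Cox6a1 lay between 82.1 and 323 with a median of 188. Cox7b lay between 82.1 and 514 CPM with a median of 273, and amacrine cells had 514 in both libraries.

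**Figure D3:**
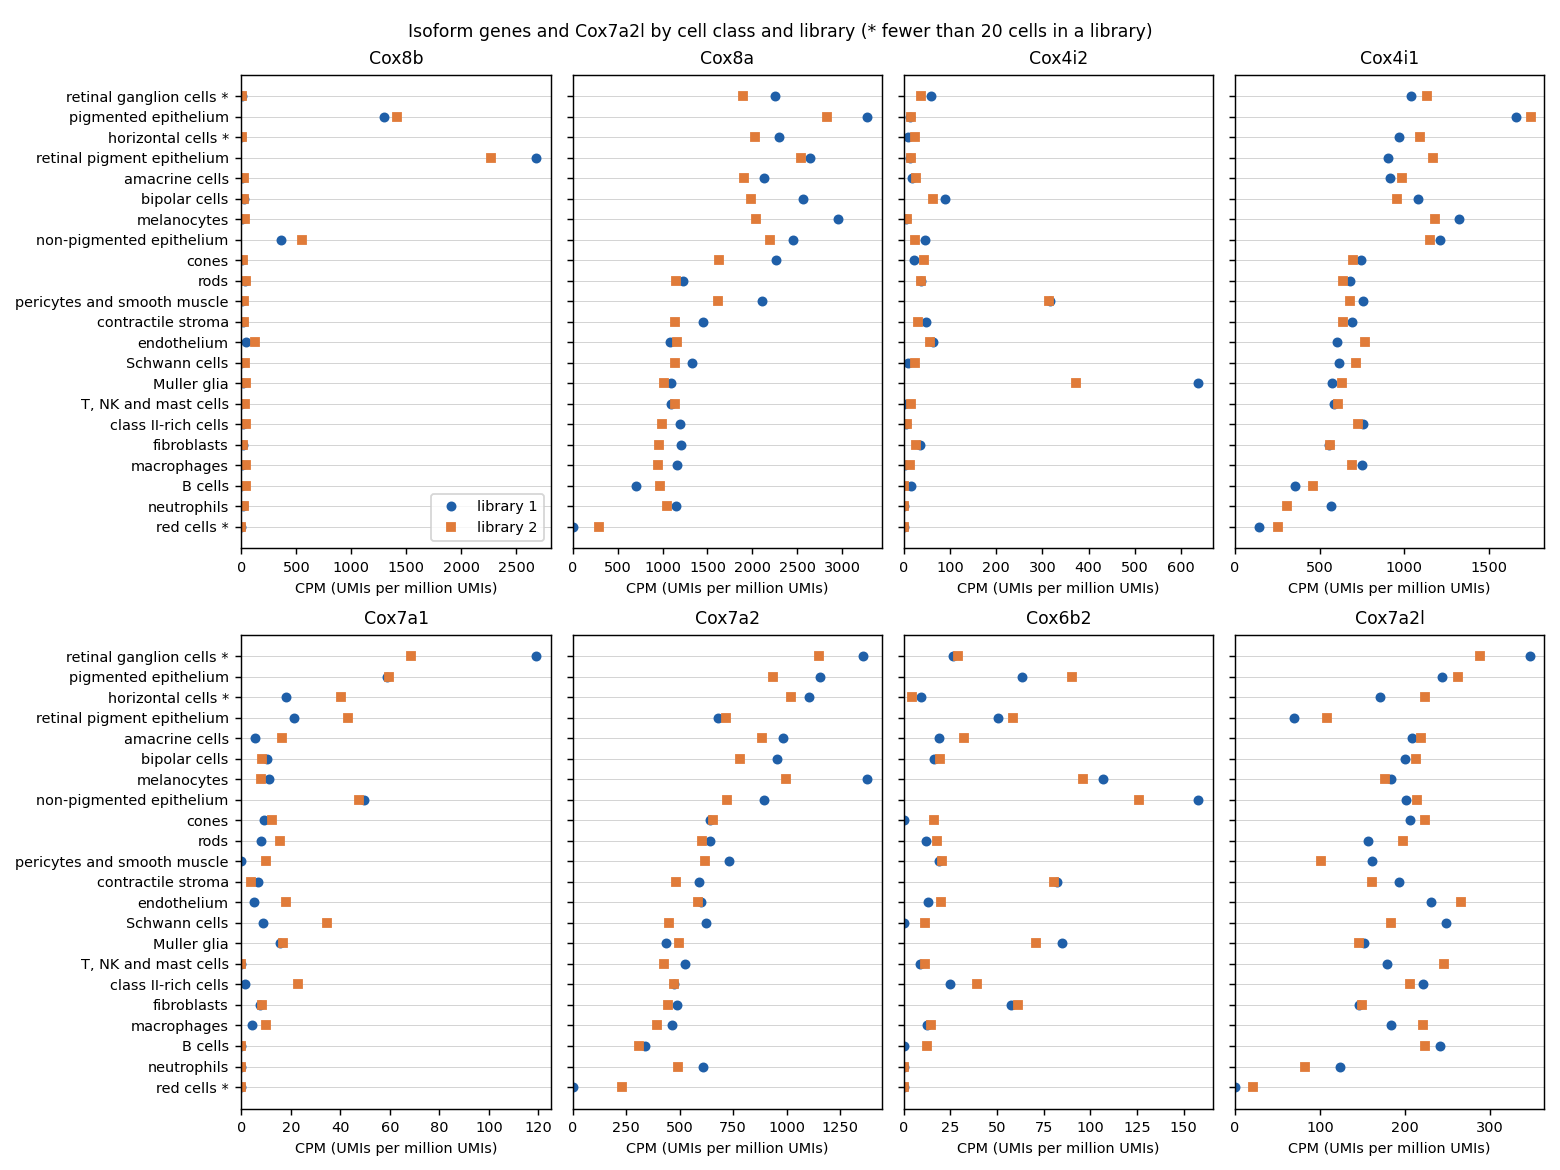
Levels of complex IV paralogs and of Cox7a2l by cell class in CPM, with 1 point for each library and asterisks on classes with under 20 cells in a library. Among fitted classes Cox8b is highest in the retinal pigment epithelium at 2681 and 2275 CPM, Cox4i2 in Muller glia at 638 and 372, Cox7a1 in the pigmented epithelium at 58.9 and 59.7 and Cox6b2 in the non-pigmented layer at 158 and 126.

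Subunit c of the ATP synthase is made from 3 genes. Atp5g1 lay between 144 and 908 CPM with a median of 427 and Atp5g3 between 138 and 934 with a median of 362. Atp5g2 had a median of 51.2. Atp5g3 was highest among fitted classes in the pigmented epithelium, 934 and 827, while retinal ganglion cells had 1307 and 940. It supplied 60.7% and 60.9% of Atp5g UMIs in amacrine cells against 34.4% and 41.8% in fibroblasts and 32.2% and 43.7% in cones. The mixture of these genes therefore differed between amacrine cells and fibroblasts by more than the gap between libraries.

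Ranges, medians and highest classes of single genes, here and for the paralogs above, cover the 38 sums of the 19 fitted classes. Among these, transcripts of the core subunits were highest in different classes. In complex I, Ndufs1, an iron-sulfur subunit that passes electrons inward, ranged from 0 to 144 CPM with a median of 44.9 and had 144 and 119 in the pigmented epithelium. Ndufv1, which binds NADH, ranged from 41 to 227 with a median of 122. It was highest among fitted classes in cones at 224 and 227, while retinal ganglion cells had 276 and 272.

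In complex III, Uqcrc1, a core protein, ranged from 35.6 to 246 CPM with a median of 133, with 246 and 209 in rods and 224 and 237 in cones. Uqcrfs1, the Rieske iron-sulfur protein, ranged from 69.1 to 318 with a median of 185. It was highest among fitted classes in the pigmented epithelium, 318 and 274, while retinal ganglion cells had 355 and 317. In complex IV, Cox5a ranged from 123 to 611 with a median of 285 and was highest among fitted classes in amacrine cells at 611 and 549. Outside the fitted classes, retinal ganglion cells had 1243 and 1194 and horizontal cells 1215 and 849. The classes with the highest levels therefore differed from subunit to subunit. Cox5b, a further subunit of complex IV, ranged from 327 to 1029 with a median of 512.

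In complex V, the catalytic head is built from Atp5a1 and Atp5b. Atp5a1 ranged from 123 to 874 CPM with a median of 382, and the pigmented epithelium had 874 and 861. Atp5b ranged from 113 to 1322 with a median of 417, with 1238 and 1322 in the pigmented epithelium, 833 and 842 in the non-pigmented layer and 250 and 285 in fibroblasts. Ndufa4 ranged from 349 to 2886 with a median of 955. It had 2886 and 2109 CPM in rods, 2360 and 2409 in cones, 2281 and 2065 in bipolar cells, 2187 and 1848 in the pigmented epithelium and 610 and 602 in fibroblasts.

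In all, 6 comparisons between classes were tested with edgeR's quasi-likelihood test on UMI counts summed per class and library, with library as a block and Benjamini-Hochberg adjustment over the 7068 genes tested, of which 77 belonged to the set. A gene was called at an adjusted p under 0.05. Each library is 1 pool of eyes, so each class has 2 sums. The spread behind these p-values is what remains between the libraries after the library term, estimated over all 19 fitted classes. They do not measure the spread between single animals. Comparisons that use the same class share its sums.

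The first comparison set the 2 layers of the ciliary bilayer against each other. Of the 77 genes, 2 were lower in the non-pigmented than in the pigmented layer and 0 higher, against 5.86% of all genes called in either direction, 2.35% called lower and 3.51% called higher. The share of the set called was thus below or near that of all genes. Cox8b, with 356 and 548 CPM in the non-pigmented and 1301 and 1419 in the pigmented layer, had a log2 fold change of -1.64 ± 0.44 (SE, adjusted p = 0.0176). Ndufb4, an accessory subunit of complex I, with 351 and 333 against 612 and 615 CPM, had -0.82 ± 0.26 (adjusted p = 0.0486), and was still called under 6 of 14 alternatives, with adjusted p up to 0.13. The groups did not overlap for either gene, but this was common: the pigmented layer lay higher without overlap for 48 of the 78 genes and lower for 5. The median log2 fold change of the set was -0.26 and that of all genes -0.02, and 18 of the 77 genes lay above the all-gene median. Both calls were lost without the library block, and with DESeq2 the Cox8b call was lost and 8 genes of the set were called, 1 of them shared.

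Few genes of the related lists were called between the layers, where 5.86% of all genes were called in either direction. Of 16 tricarboxylic acid cycle genes 1 was called, Idh3a at -0.89, and of 14 regulators of mitochondrial genes 1, the coactivator Ppargc1b at -1.85, both lower in the non-pigmented layer. None of the 13 mitochondrially encoded subunits was called, with a median of -0.19. The 6 genes of the iris muscle-like list summed to 160 and 82.3 CPM in the non-pigmented and 879 and 705 in the pigmented layer. Without pigmented cells that held a Myh11 UMI, a smooth muscle myosin, the count of called genes was 1.

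The second comparison set the mean of both epithelial layers against fibroblasts, the main cells of the stroma. Of the 77 genes, 31 were higher in the epithelium and 0 lower, against 12.5% of all genes called higher, 17.9% called lower and 30.3% called in either direction. The higher genes were 10 of 37 in complex I, 4 of 8 in complex III, 11 of 15 in complex IV and 6 of 17 in complex V. The median log2 fold change was 0.54 for the set and -0.08 for all genes, and 75 of the 77 genes lay above the all-gene median.

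The largest differences came from all 4 complexes. Cox8b, 18.5 and 15.1 CPM in fibroblasts, had a log2 fold change of 5.16 ± 0.51 (SE, adjusted p = 5.66e-10), and Cox7a1, 7.59 and 8.32 CPM in fibroblasts, had 2.46 ± 0.40 (adjusted p = 1.27e-05). Atp5b, the catalytic beta subunit of the ATP synthase, had 1.71 ± 0.24 (adjusted p = 7.77e-07). Uqcr11, a small subunit of complex III, had 1618 and 1206 CPM in the pigmented layer, 1139 and 875 in the non-pigmented layer and 329 and 292 in fibroblasts, a log2 fold change of 1.69 ± 0.22 (adjusted p = 1.55e-07). Ndufs1, with 144 and 119, 112 and 86.3, and 30.5 and 34.8 CPM in the same order, had 1.56 ± 0.26 (adjusted p = 1.05e-05). Atp5g3, with 934 and 827, 737 and 643, and 261 and 273 CPM, had 1.30 ± 0.21 (adjusted p = 4.93e-06). For all 6 genes both layers lay above fibroblasts in both libraries. This was common in the set and does not single these genes out. Without overlap, the pigmented layer lay above fibroblasts for 74 of the 78 genes and the non-pigmented layer for 70. The share over all genes was not counted. A further 8 called genes had a log2 fold change of at least 1: Atp5a1 (1.25), Ndufa4 (1.16), Uqcrfs1 (1.15), Ndufc2 (1.15), Ndufa12 (1.11), Cox4i1 (1.10), Cox8a (1.06) and Uqcr10 (1.01).

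Lists of related genes were counted in the same comparison, against 12.5% of all genes called higher and 17.9% called lower. All 13 mitochondrially encoded subunits were called higher, with a median of 1.16. Of the 16 tricarboxylic acid cycle genes 13 were higher and 0 lower, with a median of 0.92, among them Suclg2 (1.90) and the citrate synthase gene Cs (1.15). Of the 6 genes of complex II, cytochrome c and cytochrome c1, 5 were higher, led by Sdhc (1.60) and Sdha (1.36). Of 14 regulators 4 were higher, the nuclear receptors Esrra (2.36) and Esrrg (1.64) and the coactivators Ppargc1b (2.06) and Ppargc1a (1.99), and Pprc1 was lower (-1.62). Of 15 carrier and membrane genes 5 were higher and 0 lower, with Chchd10, a protein of the intermembrane space, at 3.70. The 37 assembly factors tested were mixed, with 5 higher, 4 lower and a median of 0.09. The rod markers summed to 405 and 3701 CPM in fibroblasts, close to the values in both epithelial layers. The all-gene median moved from -0.08 to 0.15 when total UMIs replaced TMM scaling and to 0.28 with the nuclear total, and the count of called genes of the set to 61 and 70.

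The third comparison set photoreceptors, as the mean of rods and cones, against bipolar and amacrine cells. Of the 77 genes, 6 were higher in photoreceptors and 14 lower, against 16.7% and 19.2% of all genes called higher and lower, 36% in either direction. Complex I accounted for 4 of the higher and 11 of the lower genes. The median of the set was -0.20 and that of all genes 0.05. With total UMIs the split was 5 higher and 31 lower, and with the nuclear total 5 and 32, as the all-gene median moved to -0.09 and -0.10.

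Uqcrc1, a core protein of complex III, had 246 and 209 CPM in rods, 224 and 237 in cones, 159 and 163 in bipolar and 116 and 176 in amacrine cells, a log2 fold change of 0.69 ± 0.23 (SE, adjusted p = 0.016). The 2 sides did not overlap for this gene. Cox6a1, the general form of subunit 6a, had 0.59 ± 0.19 (adjusted p = 0.016), Ndufa10 had 0.58 ± 0.19 (adjusted p = 0.0161) and Ndufa4 had 0.56 ± 0.19 (adjusted p = 0.0191). Ndufb11, at 0.46 ± 0.17 (adjusted p = 0.0324), lost its call under several alternatives. Ndufa10 and Ndufa4 were not called without the cells of highest doublet score, with 0.47 and 0.44.

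The genes that were lower in photoreceptors were mostly accessory subunits of complex I. Ndufc2 had 327 and 304 CPM in rods and 403 and 353 in cones, against 707 and 611 in bipolar and 788 and 742 in amacrine cells, a log2 fold change of -0.91 ± 0.18 (adjusted p = 7.92e-05). Ndufa11 had 246 and 233 in rods and 220 and 253 in cones, against 376 and 332 in bipolar and 592 and 493 in amacrine cells, a log2 fold change of -0.70 ± 0.19 (adjusted p = 0.0031). Both genes were separate between the 2 sides in both libraries. Such separation was common: bipolar cells lay above rods without overlap for 50 of the 78 genes and below for 8. Amacrine cells lay above rods for 52 and below for 12. Cox7c, a small subunit of complex IV, had -0.62 ± 0.15 (adjusted p = 0.00148), Ndufs5 had -0.60 ± 0.17 (adjusted p = 0.0052), Ndufb6 had -0.60 ± 0.20 (adjusted p = 0.0156) and Ndufa5 had -0.57 ± 0.17 (adjusted p = 0.00658). Called genes with complex I symbols therefore lay in both directions, but the higher ones named give weak ground for this. Ndufa4 is known as a complex IV subunit, and Ndufa10 and Ndufb11 were called under only 11 and 5 of 14 alternatives.

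The related lists were counted here against 16.7% of all genes called higher and 19.2% called lower. Of 14 regulators 6 were higher in photoreceptors and 1 lower. The nuclear receptor Esrrb had a log2 fold change of 3.37, the transcription factor Nrf1 1.44 and Ppargc1a 1.43, while Esrrg was lower at -1.09. The assembly factor Ndufaf5, which acts on complex I, had 1.94, and in all 2 of 37 assembly factors were higher and 4 lower. Of the mitochondrially encoded subunits mt-Cytb was higher (0.45) and mt-Co1 lower (-0.57). The ATP synthase inhibitor Atpif1 was lower (-1.19). Rod markers summed to 3671 and 11740 CPM in bipolar cells and 677 and 7269 in amacrine cells, and their part in these values was not tested.

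The fourth comparison, rods against cones, gave 0 of 77 genes at an adjusted p under 0.05 with edgeR, against 0.835% of all genes, 0.0566% higher and 0.778% lower in rods. At an unadjusted p under 0.05 there were 2, Cox8b (1.92, adjusted p = 0.271) among them, and DESeq2 called 1. The median of the set was -0.04 and that of all genes 0.13. The cone class was not free of rod RNA: its 10 rod markers summed to 23944 and 54828 CPM, against 70659 and 54730 in rods. The 9 cone markers summed to 39413 and 15304 CPM in cones and 264 and 585 in rods. The similar rod marker level in library 2 limits what this comparison can show. Outside the set, mt-Co1, the catalytic core of complex IV, was lower in rods at -1.05, with -1.71 in library 1 and -0.42 in library 2.

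The fifth comparison set the 4 retinal neuron classes against fibroblasts, pericytes with smooth muscle, and endothelium. Of the 77 genes, 21 were higher in neurons and 5 lower, against 26.4% and 25.6% of all genes called higher and lower, 51.9% in either direction. The median of the set was 0.14 and that of all genes 0.10, so the medians were close. The share of the set called lower was below that of all genes. Complex I supplied 13 of the higher genes and none of the lower, and complex V 5 of the higher genes and 2 of the lower. With total UMIs the split was 54 and 1, and with the nuclear total 57 and 1, as the all-gene median moved to 0.39 and 0.41.

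Among the higher genes, Atp5sl, now known as an assembly factor of complex I, had 26.6 to 38.3 CPM in the neurons, against 9.17 and 12.1 in fibroblasts, 3.16 and 0 in pericytes and 13.6 and 7.20 in endothelium. Its log2 fold change was 2.01 ± 0.32 (SE, adjusted p = 2.25e-06), and the groups did not overlap. It was 1.36 at clustering resolution 0.5. Ndufa4 had 1.16 ± 0.15 (adjusted p = 5.02e-08), Ndufa10 had 0.94 ± 0.16 (adjusted p = 8.08e-06), Ndufs1 had 0.90 ± 0.19 (adjusted p = 1.80e-04) and Ndufb8 had 0.87 ± 0.14 (adjusted p = 2.72e-06). These 4 are symbols of complex I.

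Among the lower genes, Cox4i2 had -1.39 ± 0.22 (SE, adjusted p = 2.03e-06) and Cox6b2 had -0.87 ± 0.29 (adjusted p = 0.0117). At clustering resolution 0.5 Cox4i2 was -0.63 and Cox6b2 -1.49, and without library 2 Cox6b2 was -1.79. For Cox4i2 the stromal values overlapped those of neurons: fibroblasts had 35.3 and 26.5 CPM and bipolar cells 89.3 and 63.0. Atp5e, a small subunit of the ATP synthase head, had -0.48 ± 0.13 (adjusted p = 0.00278). Atp5j, at -0.34 ± 0.14 (adjusted p = 0.0368), and Uqcr11, at -0.31 ± 0.13 (adjusted p = 0.0426), changed sign with other scalings: Uqcr11 was 0.02 with total UMIs and 0.05 with the nuclear total, and Atp5j 0.01 with the nuclear total. Cox6b2 and Atp5e kept their sign but not their call under both. Of the related lists, 9 of 37 assembly factors were called higher and 0 lower, against 26.4% of all genes called higher, with Ndufaf5 at 2.43. The regulators Esrrb (4.69) and Esrrg (3.09) were higher. Suclg2, of the tricarboxylic acid cycle, was lower at -3.15. None of the 13 mitochondrially encoded subunits was called.

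The sixth comparison set the retinal pigment epithelium against the pigmented ciliary or iris epithelium, which share an origin in the optic cup. Of the 77 genes, 3 were higher in the retinal class and 1 lower, against 5.53% and 5.81% of all genes, 11.3% in either direction. The medians were -0.03 and -0.05. With total UMIs the split was 2 and 14 and with the nuclear total 2 and 19, as the all-gene median moved to -0.29 and -0.35.

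The 3 higher genes are accessory subunits of complex I. Ndufv3 had 754 and 728 CPM in the retinal class and 472 and 376 in the ciliary class, a log2 fold change of 1.09 ± 0.25 (SE, adjusted p = 0.00293). Ndufb11 had 693 and 772 against 466 and 449 CPM, a log2 fold change of 0.96 ± 0.24 (adjusted p = 0.00635). Ndufs5 had 616 and 615 against 440 and 401 CPM, a log2 fold change of 0.82 ± 0.24 (adjusted p = 0.0187), and lost its call with either of the other scalings. The groups did not overlap for any of the 3. In CPM, the retinal class lay higher without overlap for 9 of the 78 genes and lower for 52. Cox7a2l, a factor that helps complexes III and IV to associate, had 69.0 and 108 CPM against 244 and 263, a log2 fold change of -1.25 ± 0.28 (adjusted p = 0.00181). Its level in library 1 was the lowest of all 38 sums. Outside the set, Ppargc1b (-2.07) and the complex II gene Sdha (-0.73) were lower in the retinal class, and Higd1a (0.96) was higher. None of the 13 mitochondrially encoded subunits was called.

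**Figure D4:**
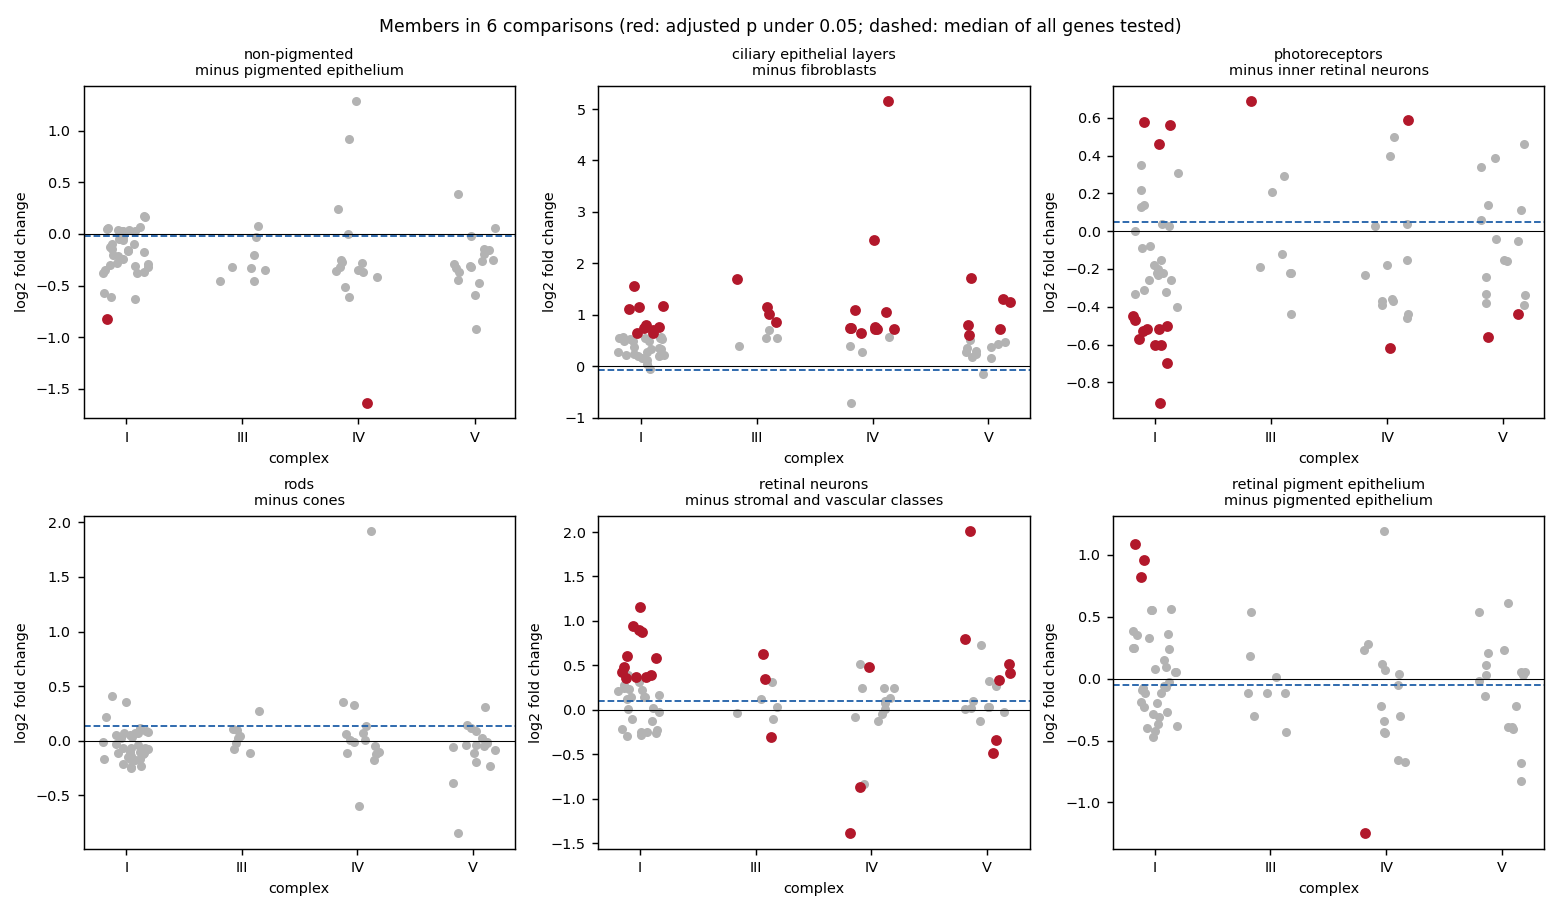
Log2 fold change of the tested genes of the set, all but 1, in the 6 comparisons, by complex, with genes at an adjusted p under 0.05 in red and the median of all genes tested as a dashed line. The median of the set lies above the all-gene median in the epithelium against fibroblasts, 0.54 against -0.08, and below it in photoreceptors against inner neurons, -0.20 against 0.05.

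The nuclear set was then set beside the 13 subunits encoded in mitochondrial DNA. The mitochondrially encoded UMIs reached 1449 and 1471 per 10000 in the pigmented epithelium, 1293 and 1268 in the non-pigmented layer and 1167 and 950 in the retinal pigment epithelium. Over the 19 classes, as means of the 2 libraries, Pearson's r with the nuclear set was 0.75 and Spearman's rho 0.68, as a description of points that share libraries and totals. Both genomes' subunits were therefore high in the same epithelial classes. Amacrine cells departed from this, with 391 and 378 nuclear-set UMIs per 10000 but 484 and 667 mitochondrially encoded. Their ratio of mitochondrially encoded to nuclear-set UMIs was 1.24 and 1.76, against 3.05 and 3.40 in the pigmented epithelium, 3.30 and 3.68 in the non-pigmented layer and 3.60 and 4.39 in B cells. Melanocytes had a ratio of 1.33 and 2.24 and retinal ganglion cells 0.725 and 1.36. Cells above 30% mitochondrial UMIs had been removed.

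**Figure D5:**
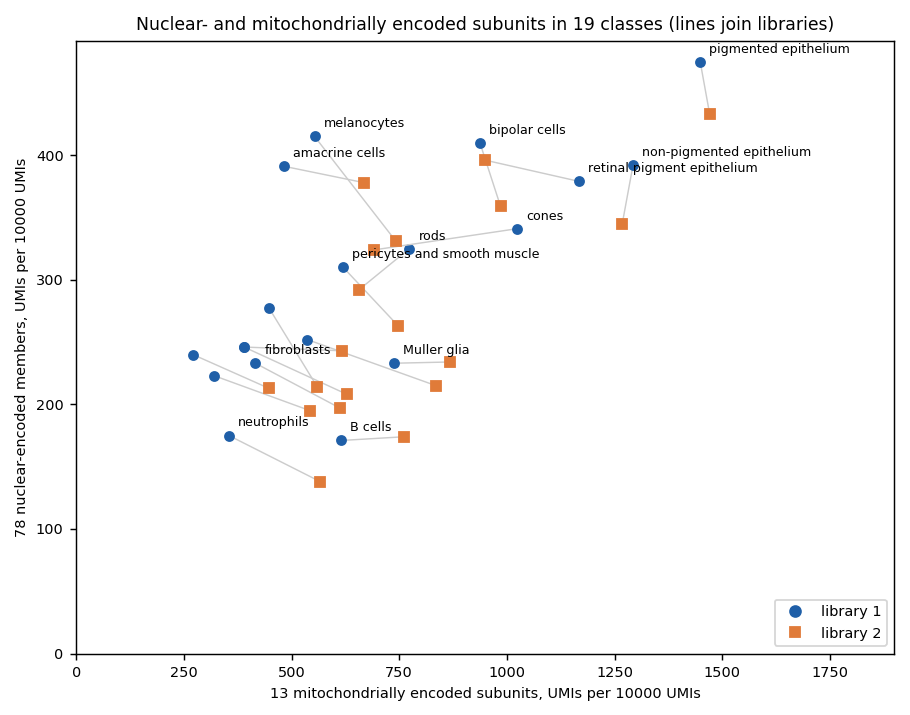
UMIs of the nuclear-encoded set per 10000 UMIs against those of the 13 mitochondrially encoded subunits, with 1 point for each fitted class and library and a line joining the libraries of a class. The pigmented epithelium lies at the upper right, and amacrine cells have high nuclear values, 391 and 378, with 484 and 667 mitochondrially encoded UMIs per 10000.

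With mitochondrially encoded UMIs left out of the total, the nuclear set made up 555 and 508 UMIs per 10000 in the pigmented epithelium, 450 and 395 in the non-pigmented layer, 352 and 312 in rods and 243 and 210 in fibroblasts. The order of these 4 classes did not depend on that choice. Some genes of the set cannot be fully separated from others by their sequence. Of the 78 genes, 12 overlapped another gene on the same strand and 28 on the other strand. For 10, the last 300 transcript bases matched another gene at 98% identity or more over at least 90 bases, among them Ndufs5, Uqcr11, Ndufb11, Cox7c, Cox6c, Atp5l and Atp5g2. Values of these genes are uncertain where the counting could split reads. Cox4i1 overlaps Gm20388 on the same strand.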

How the data were processed

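Per the labels' protocols, pooled ciliary tissue was digested and sequenced as droplet libraries. The authors deposited raw UMI counts per gene and barcode, and the deposited matrices come from Cell Ranger 3.1.0, per the file headers. CASAVA 1.8, Cell Ranger, Seurat, mm10 and GRCm38 are named in the submitters' processing notes, and the capture chemistry is not given in the sources used here. A second deposited matrix of counts per library had 0 differing entries and was not used further.

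Barcodes were kept where 500 or more genes were detected and mitochondrial UMIs did not exceed 30%: 3865 of 4764 and 5466 of 6220 barcodes. With scanpy 1.11.5 in Python 3.11.15, cells were clustered (2000 variable genes, 30 principal components, 15 neighbours, resolution 1) on a random share of genes without the 78 genes or the pathway lists, so that the genes tested had no part in the clustering. Clusters were named from fixed marker lists, by at least 3 markers above 0.5 UMIs per 10000 and 4-fold over the median of the other clusters. This scoring rule was written after marker levels had been seen. Counts were summed per class and library and tested with edgeR 4.0.16 in R 4.3.3 (quasi-likelihood, TMM, filterByExpr, class and library as terms) over 38 sums with 18 residual degrees of freedom. DESeq2 1.42.0 was an alternative, as were other scalings, filters, resolutions and gene splits. The 2 libraries pair the classes, since all classes of 1 library come from the same pool. Depth sets the precision: class sums held 48746 to 5667658 UMIs.

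Per comparison, up to 6 called genes per direction with the largest change, a direction shared by the libraries and 50 or more UMIs on the higher side are named, with the paralog groups, core subunits and Ndufa4. Values of 1 gene of the set are not reported here, although counts and sums include it. The genes of the set and all lists were chosen with earlier results of these data known. Tested on simulated data for the non-pigmented against the pigmented layer (6906 genes), the fit recovered 84% of 100 genes changed 4-fold and 8% of 100 changed 2-fold, and of 94 calls 2 were of unchanged genes.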

Additional observations from a re-analysis of the deposited data

How the results depend on the processing

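The count of called genes of the set depended on the settings, while its median relative to that of all genes kept its sign in 4 of the 6 comparisons. That median ranged from 0.48 to 0.69 in the epithelium against fibroblasts, from -0.29 to -0.21 between the ciliary layers, from -0.31 to -0.19 in photoreceptors against inner neurons and from -0.19 to -0.03 in rods against cones. It ranged from -0.02 to 0.17 in neurons against stromal and vascular classes and from -0.14 to 0.07 in the retinal against the ciliary pigmented epithelium. With 1 library left out, a value with no test, it was -0.20 and -0.20 in photoreceptors, 0.10 and 0.13 in neurons, and -0.14 in the retinal pigmented epithelium without library 2.

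Between the ciliary layers the count was 2 in the report, 8 with DESeq2, 0 with no replicate block and 1 with no filter on low counts, at resolution 0.5, at resolution 2, or when log2 fold changes under 1 in size were not called. It was also 1 under each of 3 settings chosen after seeing the data: without the top 5% of doublet scores, without clusters of low depth, and without pigmented cells with a Myh11 UMI. In the epithelium against fibroblasts it was 31, and 67 with DESeq2, 61 with total UMIs, 70 with nuclear UMIs, 47 at no more than 15% mitochondrial UMIs, 47 at 1000 or more genes per cell and 14 with that fold change limit. All 31 genes were shared under DESeq2 and under both other scalings. In photoreceptors against inner neurons it was 20, and in the same order 42, 36 and 37, 12 with no filter, 12 with no replicate block and 1 with the fold change limit. In rods against cones it was 0, and 1 with DESeq2 or with no filter. In neurons against stromal and vascular classes it was 26, and 48 with DESeq2, 55 with total UMIs, 58 with nuclear UMIs, 44 at 15% mitochondrial UMIs and 3 with the fold change limit; with 1000 or more genes per cell this comparison was not run, because the pericyte class did not form. In the retinal against the ciliary pigmented epithelium it was 4, and 17, 16 and 21 with DESeq2, total and nuclear UMIs, 7 at 1000 or more genes and 2 with the fold change limit. The cause of these shifts was not tested, except that fewer genes pass a fold change limit by construction. The replicate block changed no other count by more than 1.5 times.

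Of 35 differences that met the naming rule, 12 were called under every alternative. In neurons against stromal and vascular classes, Uqcr11 reversed to 0.02 with total UMIs and 0.05 with nuclear UMIs, and Atp5j to 0.01 with nuclear UMIs. The level in the pigmented epithelium, 454 as the mean of both libraries, was 494 at 15% mitochondrial UMIs and 532 with mitochondrially encoded UMIs left out of the total, and that in rods, 308, was 332 with them left out. The rule gave 77 genes at 100 or more UMIs and 80 at 1 or more. In data simulated for the comparison of the ciliary layers, 8% of 2-fold changes were recovered, so genes not called there cannot be taken as equal.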
